A study of Sus scrofa with 16 samples.

Results

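Genes of bile acid synthesis, conjugation, transport and control were followed in the liver of pigs fed 3 dietary fats. The 10 genes were CYP7A1, CYP8B1, CYP27A1, CYP7B1, BAAT, SLC27A5, SLC10A1, ABCB11, NR1H4 and NR0B2, chosen by their pig gene symbol. Of these, 9 had an identifier among the 25880 genes counted, and CYP8B1, the sterol 12-alpha-hydroxylase of the classic pathway, was not analysed here. In all, 7 of the 9 had enough reads to be tested in every pair of diets, namely CYP7A1, CYP27A1, CYP7B1, ABCB11, SLC10A1, NR1H4 and NR0B2.

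The study took liver from 16 pigs whose dams were Polish Landrace x Polish Large White and whose sires were Duroc x Pietrain. Group R (5 pigs, 3 gilts and 2 barrows) received rapeseed oil, group B (5 pigs, 2 gilts and 3 barrows) beef tallow, and group C (6 pigs, 3 of each sex) coconut oil. All diets were matched for energy and protein, the pigs were fattened from about 60 to 118 kg, and no group went without an added fat. One library of mRNA 3′ ends was sequenced per pig, and each read that was counted went to 1 gene. Ages at slaughter are not stated in the sources used here.

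Bile acids are made from cholesterol in hepatocytes. In the classic pathway CYP7A1 takes the first and rate-limiting step, and CYP8B1 then sets how much cholic acid is formed; in the alternative pathway CYP27A1 and CYP7B1 act first. The acids are activated by SLC27A5, joined to glycine or taurine by BAAT, exported into bile by ABCB11, and taken back up from portal blood by SLC10A1. The nuclear receptor FXR, encoded by NR1H4, senses bile acids and induces SHP, encoded by NR0B2, which represses CYP7A1.

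Gene counts summed to 705669 at the lowest and 1767671 at the highest library, and the median library held 1018321.5. Levels are normalised read counts in CPM, that is, counts scaled to a common library size after TMM. Hepatocyte markers made up most of the marker signal, with a summed level of 65734 to 189982 CPM over 6 genes (ALB, APOA1, TF, SERPINA1, TTR and APOB), although SERPINA1 had only 7 reads in all. The 5 matched bile duct cell markers summed to 3.93 to 42.2 CPM. Beef tallow pig 3 stood apart from the other pigs on the first principal component (21.4% of the variance). Its distance from the median was 3.12 times that of the next pig, and it had the lowest sum of hepatocyte markers. In these bulk samples, fewer cells of a type and less RNA per cell cannot be told apart.

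Of the 7 genes tested, CYP7A1 differed most between the diets. Its level was lowest in the pigs fed beef tallow, at 0.161 times that in the pigs fed rapeseed oil. The export pump ABCB11 was lower in the same comparison by less than that. The ABCB11 call was near the threshold in edgeR and was lost in 8 of 10 fits with 1 pig removed, where CYP7A1 passed in all 10. Neither enzyme of the alternative pathway, nor NR1H4, NR0B2 or SLC10A1, passed the test in any pair of diets.

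CYP7A1 (ENSSSCG00000006238, chromosome 4 from 74343101 to 74372628 in Sscrofa11.1) measured 211, 145, 243, 96.8 and 143 CPM in the 5 pigs of group R. In group B it measured 33.6, 61.5, 11.8, 15.9 and 13.3 CPM. In group C it measured 186, 161, 147, 116, 63 and 33.8 CPM in pigs 1 to 6, falling at each step, with a median of 131 CPM. Every pig of group B lay below every pig of group R, while in group C 5 of 6 pigs lay above all of group B and 2 of 6 lay below all of group R. Group R averaged 168 ± 58.6 CPM (SD, n = 5), group B 27.2 ± 21.1 CPM (SD, n = 5) and group C 118 ± 59.1 CPM (SD, n = 6). The highest pig exceeded the lowest by 5.5 times in group C and 5.21 times in group B, against 2.51 times in group R. Over all 16 pigs that ratio was 20.6, the widest of the 7 tested genes.

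**Figure D1:**
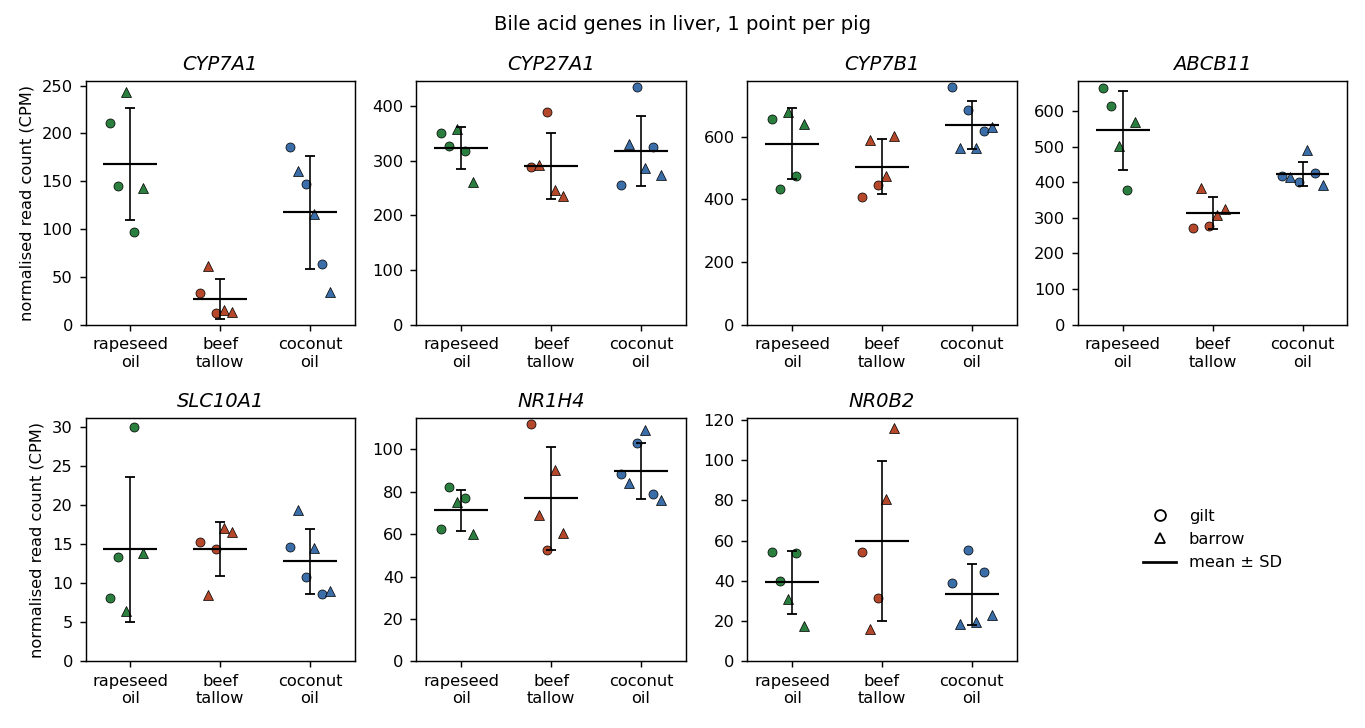
Normalised read count (CPM) of the 7 tested bile acid genes in each pig, by diet. Circles are gilts and triangles barrows, and the bar and whiskers give the mean ± SD of the diet; the CYP7A1 points of the beef tallow pigs lie between 11.8 and 61.5 CPM, below all 5 rapeseed oil pigs.

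For beef tallow against rapeseed oil, the log2 fold change of CYP7A1 was -2.63 (standard error 0.39), or 0.161 times the level of group R. In edgeR's quasi-likelihood test, adjusted by the Benjamini-Hochberg method over 6318 genes, this gave an adjusted p of 0.00677, the 5th smallest p of that comparison. Without beef tallow pig 3 the log2 fold change was -2.42 (edgeR adjusted p = 0.00498). When each of the 10 pigs was left out in turn it stayed between -3.15 and -2.42, and each of these 10 fits passed.

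Between coconut oil and beef tallow, CYP7A1 was 4.32 times as high with coconut oil (log2 fold change 2.11, standard error 0.46), with an unadjusted p of 0.000289 and an edgeR adjusted p of 0.131 over 6812 genes. This call depended on the method, since DESeq2 gave an adjusted p of 0.00068 and edgeR without the filter on low counts gave 0.000337. Leaving out beef tallow pig 2, the highest pig of group B, gave 2.62 and an edgeR adjusted p of 0.0338, and none of the other 10 fits that left out a pig passed. Between coconut oil and rapeseed oil the log2 fold change of CYP7A1, with rapeseed oil as the reference, was -0.53 (standard error 0.33, edgeR adjusted p = 0.532), and these groups overlapped.

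In the alternative pathway, 0 of 2 enzymes passed in edgeR or in DESeq2. Of all genes, edgeR called 1.11% for beef tallow against rapeseed oil, 0.138% for coconut oil against rapeseed oil and 0.0587% for coconut oil against beef tallow. DESeq2 called 3.24%, 2.61% and 2.46% of its genes in the same order. Against shares this low, 0 of 2 does not set the pathway apart from other genes. CYP27A1 (ENSSSCG00000016199, chromosome 15 from 120809886 to 120852196), the mitochondrial sterol 27-hydroxylase, measured 351, 326, 358, 318 and 261 CPM in group R and 289, 291, 388, 246 and 236 CPM in group B. In group C it ran from 256 through a median of 306 to 435 CPM. The 3 groups overlapped, and over all 16 pigs the highest level was 1.85 times the lowest. Its log2 fold changes were -0.15 (standard error 0.17) for beef tallow against rapeseed oil, -0.03 for coconut oil against rapeseed oil and 0.13 for coconut oil against beef tallow, with edgeR adjusted p of 0.728, 0.958 and 0.818.

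CYP7B1 (ENSSSCG00000022092), the oxysterol 7-alpha-hydroxylase, measured 658, 434, 679, 476 and 640 CPM in group R and 407, 590, 446, 474 and 602 CPM in group B. In group C it ran from 564 through 625 to 760 CPM. Of the coconut oil pigs, 4 of 6 lay above every beef tallow pig, and the other 2 overlapped with them. For coconut oil against beef tallow the log2 fold change was 0.34 (standard error 0.15), with an unadjusted p of 0.0394 that did not pass after adjustment (edgeR adjusted p = 0.42). The other comparisons gave -0.20 for beef tallow against rapeseed oil (edgeR adjusted p = 0.657) and 0.14 for coconut oil against rapeseed oil (edgeR adjusted p = 0.777).

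Since a ratio of reads within 1 library does not depend on the scaling between libraries, CYP7A1 was also set against both enzymes pig by pig. The number of CYP7A1 reads per CYP27A1 read had a median of 0.547 with rapeseed oil (0.304 to 0.679), 0.0647 with beef tallow (0.0305 to 0.212) and 0.371 with coconut oil (0.123 to 0.728). The ranges of groups R and B did not overlap, and that of group C overlapped with both. Per CYP7B1 read the medians were 0.321 with rapeseed oil (0.203 to 0.358), 0.0336 with beef tallow (0.0221 to 0.104) and 0.21 with coconut oil (0.0535 to 0.285). These ratios are a description and were not tested, and they rest on 12 to 287 CYP7A1 reads per pig.

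**Figure D2:**
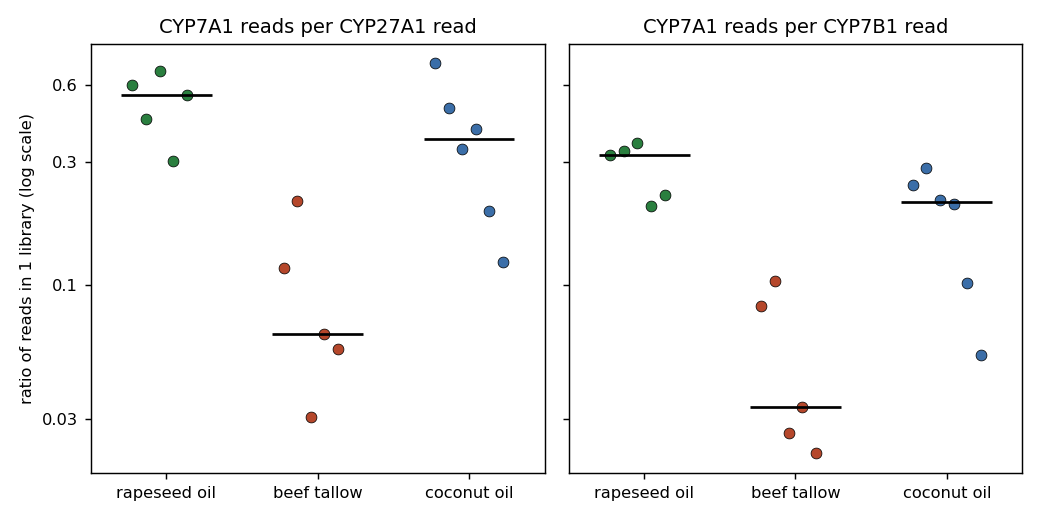
CYP7A1 reads per CYP27A1 read (left) and per CYP7B1 read (right) in each library, on a log scale, with 1 point per pig and a bar at the median of the diet. In both panels all 5 beef tallow pigs lie below all 5 rapeseed oil pigs, and the coconut oil pigs spread across both.

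Conjugation could not be compared. BAAT (ENSSSCG00000035245), the enzyme that joins bile acids to glycine or taurine, was counted at 0 reads in all 16 libraries. A count of 0 allows a level of up to 1.7 to 4.25 CPM per library, taking 3 reads as the limit and covering counting error only. SLC27A5 (ENSSSCG00000031449, chromosome 6 from 63068880 to 63075246), the bile acid-CoA ligase, had 0 to 6 reads per pig and 28 in all, and did not pass the filter on low counts. Between 15.9% and 30.1% of the tallied reads of each pig lay outside annotated genes, and their part in these low counts was not tested.

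Uptake rested on few reads as well. SLC10A1 (ENSSSCG00000002313, chromosome 7 from 93400037 to 93421989), the sodium-dependent bile acid transporter NTCP, had 5 to 29 reads per pig. It measured 8.09, 13.3, 6.46, 29.9 and 13.8 CPM in group R, 15.3, 8.49, 14.4, 17 and 16.6 CPM in group B, and from 8.56 through 12.7 to 19.3 CPM in group C. The groups overlapped throughout. The log2 fold changes were 0.01 (standard error 0.37) for beef tallow against rapeseed oil, -0.18 for coconut oil against rapeseed oil and -0.19 for coconut oil against beef tallow, and the edgeR adjusted p were 0.997, 0.879 and 0.834.

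For export, the reads of ABCB11 (ENSSSCG00000015926, chromosome 15 from 75402296 to 75487092), the bile salt export pump, came to 664, 614, 502, 378 and 569 CPM in group R and 271, 383, 278, 307 and 325 CPM in group B. In group C it ran from 392 through 416 to 489 CPM. Of the beef tallow pigs, 4 of 5 lay below every rapeseed oil pig and the other one, pig 2, lay above the lowest of them. All 6 coconut oil pigs lay above all 5 beef tallow pigs. The coconut oil pigs varied least, with a coefficient of variation of 8.13% against 20.3% in group R and 14.3% in group B.

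For beef tallow against rapeseed oil the log2 fold change of ABCB11 was -0.80 (standard error 0.18), or 0.573 times (edgeR adjusted p = 0.0431). That call was near the threshold in edgeR. Of 10 fits with 1 pig removed, 2 kept it, without beef tallow pig 3 (edgeR adjusted p = 0.0349) and without rapeseed oil pig 4, the lowest of group R (edgeR adjusted p = 0.0233). The call was also lost with sex as a covariate (edgeR adjusted p = 0.0514), with the replicate block (0.0813) and with thinned counts (0.0632). The sexes were unequally split between these diets, and with sex in the fit the log2 fold change was -0.83. The call was kept in 4 of the 7 alternatives with every pig. These were DESeq2 (adjusted p = 0.00164) and, in edgeR, RLE size factors (0.0427), no filter on low counts (0.018) and 1 fit of all 16 pigs (0.0157). In the other 8 fits without 1 pig the edgeR adjusted p was between 0.0549 and 0.117, with log2 fold changes between -0.89 and -0.72. Coconut oil against beef tallow gave 0.44 (standard error 0.14, unadjusted p = 0.00724), which missed the threshold in edgeR (adjusted p = 0.292) and passed in DESeq2 (adjusted p = 0.0374). Coconut oil against rapeseed oil gave -0.37 (standard error 0.15, edgeR adjusted p = 0.301).

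Neither the receptor nor the repressor passed the test. NR1H4 (ENSSSCG00000000875, chromosome 5 from 83607222 to 83732668) measured 62.5, 82.1, 75, 77.3 and 60 CPM in group R and 112, 69, 52.5, 90.3 and 60.8 CPM in group B. In group C it ran from 76 through 86.2 to 109 CPM, and the 3 groups overlapped. Its log2 fold changes were 0.11 (standard error 0.22, edgeR adjusted p = 0.856) for beef tallow against rapeseed oil, 0.32 (standard error 0.16, edgeR adjusted p = 0.395) for coconut oil against rapeseed oil and 0.22 (edgeR adjusted p = 0.711) for coconut oil against beef tallow.

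NR0B2 (ENSSSCG00000003565, chromosome 6 from 84225670 to 84228156) had the widest spread of the 7 genes after CYP7A1 (highest over lowest 7.3), from 15.9 to 116 CPM over the 16 pigs. It measured 54.4, 40, 31, 53.6 and 17.7 CPM in group R and 54.3, 15.9, 31.5, 80.7 and 116 CPM in group B. In group C it ran from 18.4 through 31 to 55.5 CPM. The highest pigs and the lowest pig of all were both fed beef tallow, so that group B spanned the other groups. The log2 fold changes were 0.57 (standard error 0.42, edgeR adjusted p = 0.552) for beef tallow against rapeseed oil, -0.28 (edgeR adjusted p = 0.772) for coconut oil against rapeseed oil, and -0.84 (standard error 0.40, edgeR adjusted p = 0.44) for coconut oil against beef tallow.

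**Figure D3:**
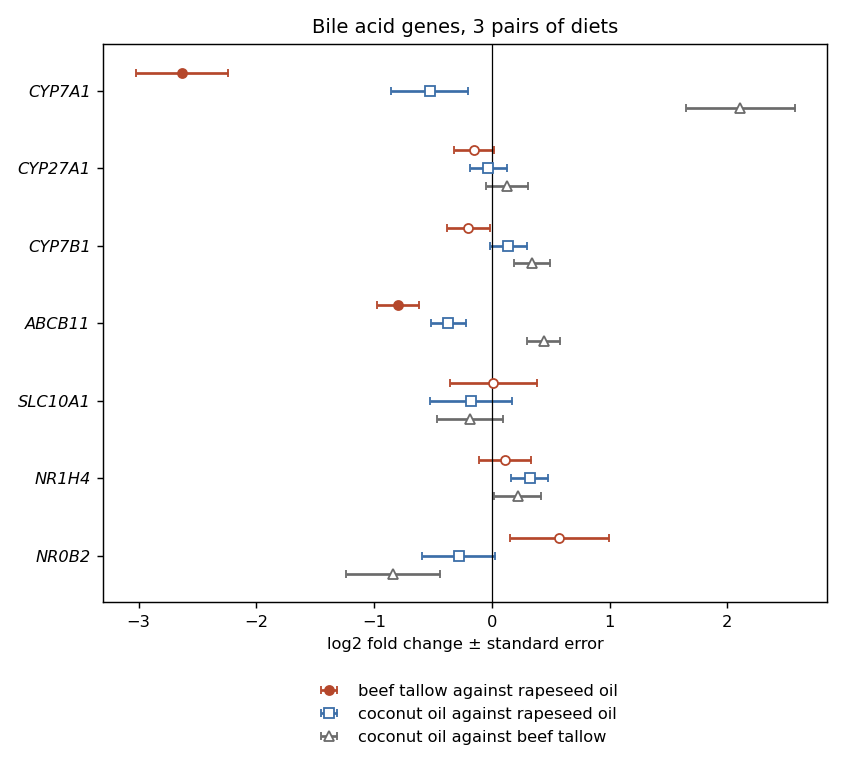
Log2 fold change of the 7 tested genes in the 3 pairs of diets, with whiskers of 1 standard error. Filled symbols passed an edgeR adjusted p of 0.05, which only CYP7A1 at -2.63 and ABCB11 at -0.80 did, both for beef tallow against rapeseed oil.

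Counted together, 2 of the 7 tested genes passed for beef tallow against rapeseed oil, both lower with beef tallow, where 1.11% of the 6318 genes tested passed (0.459% lower), and DESeq2 called the same number, against 3.24% of its genes. In 1 of the 7, CYP7A1, the pigs of the diets did not overlap, which held for 4.57% of all genes. The median log2 fold change of the 7 was -0.15, against 0.01 over all genes tested, and 2 of 7 had an unadjusted p below 0.05 (15% of all genes). With coconut oil against rapeseed oil 0 of 7 passed in edgeR, where 0.138% of 6528 genes did, and 1 of 7 had an unadjusted p below 0.05, where 13% of all genes had. DESeq2 called 0 of the 6 to which it gave an adjusted p, against 2.61% of its genes, and the median was -0.18, against 0 over all genes. In coconut oil against beef tallow 0 of 7 passed in edgeR, where 0.0587% of 6812 genes did, 3 had an unadjusted p below 0.05 (11.5% of all genes), and DESeq2 called 2 of the 5 to which it gave an adjusted p (2.46% of its 2156 genes). Here the median was 0.22, against 0 over all genes, and 1 of 7, ABCB11, did not overlap between the diets, against 1.45% of all genes. The 3 comparisons share their diets 2 by 2 and are not independent of each other. CYP7A1 and ABCB11 had already been reported as lower with beef tallow in these livers, and the members were chosen with earlier results known. The counts set beside all genes are therefore a description and cannot test whether the members as a set stand apart.

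Between the sexes, 0 of the 7 genes passed in edgeR over all 16 pigs, where 0.0786% of 6365 genes did, and 0 had an unadjusted p below 0.05 (4.02% of all genes). DESeq2 called 0 as well, where 0.0694% of its genes passed. The differences lay between -0.24 and 0.07 on the log2 scale for barrows against gilts. NR0B2 was at -0.23, and moved to -0.50 with diet as a covariate and to -0.68 without beef tallow pig 5, its highest pig, again without passing (edgeR adjusted p = 0.914 and 0.998). The diet effect on CYP7A1 pointed the same way in both sexes: gilts averaged 151 CPM in group R and 22.7 CPM in group B, and barrows 193 and 30.2 CPM. In edgeR 0 genes of all those tested passed for an interaction of diet and sex in any pair of diets, with 240 to 260 genes at an unadjusted p below 0.05, and DESeq2 called 0 of the 7. The smallest interaction p among the 7 was that of NR0B2 for coconut oil against beef tallow (unadjusted p = 0.0227, edgeR adjusted p = 1), where barrows averaged 70.9 CPM in group B and 20.3 CPM in group C, and gilts 42.9 and 46.3 CPM.

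Within the diets, none of the 6 relations to CYP7A1 from pig to pig passed the permutation test. After centring log2 CPM on each diet, Pearson's r with CYP7A1 over the 16 pigs was 0.39 for ABCB11 (Spearman's rho 0.27), with permutation p of 0.102 and 0.32. For NR0B2, r was -0.28 (rho -0.25), with permutation p of 0.37 and 0.402. For NR1H4, r was 0.36 (rho 0.39, permutation p = 0.25 and 0.194). CYP7B1, CYP27A1 and SLC10A1 had r of 0.30, 0.16 and -0.20 (rho 0.24, 0.19 and -0.18). Beef tallow pig 2 and coconut oil pig 6 lay farthest from the median of CYP7A1 on the centred scale. Without them, an alternative chosen after seeing the data, r was 0.13 for ABCB11, -0.11 for NR0B2, 0.47 for NR1H4, 0.21 for CYP7B1, 0.01 for CYP27A1 and -0.24 for SLC10A1. Beef tallow pigs 3 and 5 lay farthest before centring, and without them r was 0.38, -0.27, 0.07, 0.42, 0.36 and -0.16 in the same order. The values for ABCB11, NR0B2, NR1H4 and CYP27A1 therefore rested on a few pigs, and no relation passed after adjustment in either case. Adjusted over the 6 relations and with all 16 pigs, the smallest permutation p was 0.502 for r and 0.509 for rho.

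Over the 16 pigs without centring, the 5 genes of 6218 whose log2 CPM was most like that of CYP7A1 were ANKS4B (Pearson's r 0.84), ADTRP, RPS7, AGMO and KLB (0.82 each). All points share the 3 diets and the scaling of the libraries. ANKS4B averaged 27.5 CPM with rapeseed oil, 12.2 with beef tallow and 29.3 with coconut oil. KLB, the beta-Klotho co-receptor for the gut hormone FGF19, averaged 26.6, 12.3 and 23.9 CPM in the same order. ADTRP averaged 74.5, 41.7 and 53.5 CPM, AGMO 102, 68.2 and 84.5 CPM, and RPS7 791, 641 and 753 CPM.

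The other genes of the pathway were read from lists of 12 further synthesis enzymes, 12 further transporters and 12 further regulators. Of these 36 genes 30 had an identifier and 18 had enough reads for every comparison. In edgeR 0 of the 18 passed for any pair of diets, where 1.11%, 0.138% and 0.0587% of all genes did for beef tallow against rapeseed oil, coconut oil against rapeseed oil and coconut oil against beef tallow. DESeq2 called 1 of the 18, FGFR4, for beef tallow against rapeseed oil (adjusted p = 0.0152), where it called 3.24% of all genes. It called 0 in the coconut oil comparisons, in which some of the 18 received no adjusted p from it. At an unadjusted p below 0.05 stood 5, 3 and 2 of the 18 in the same order, against 15%, 13% and 11.5% of all genes, and the counts of the coconut oil comparisons were near that background.

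**Figure D4:**
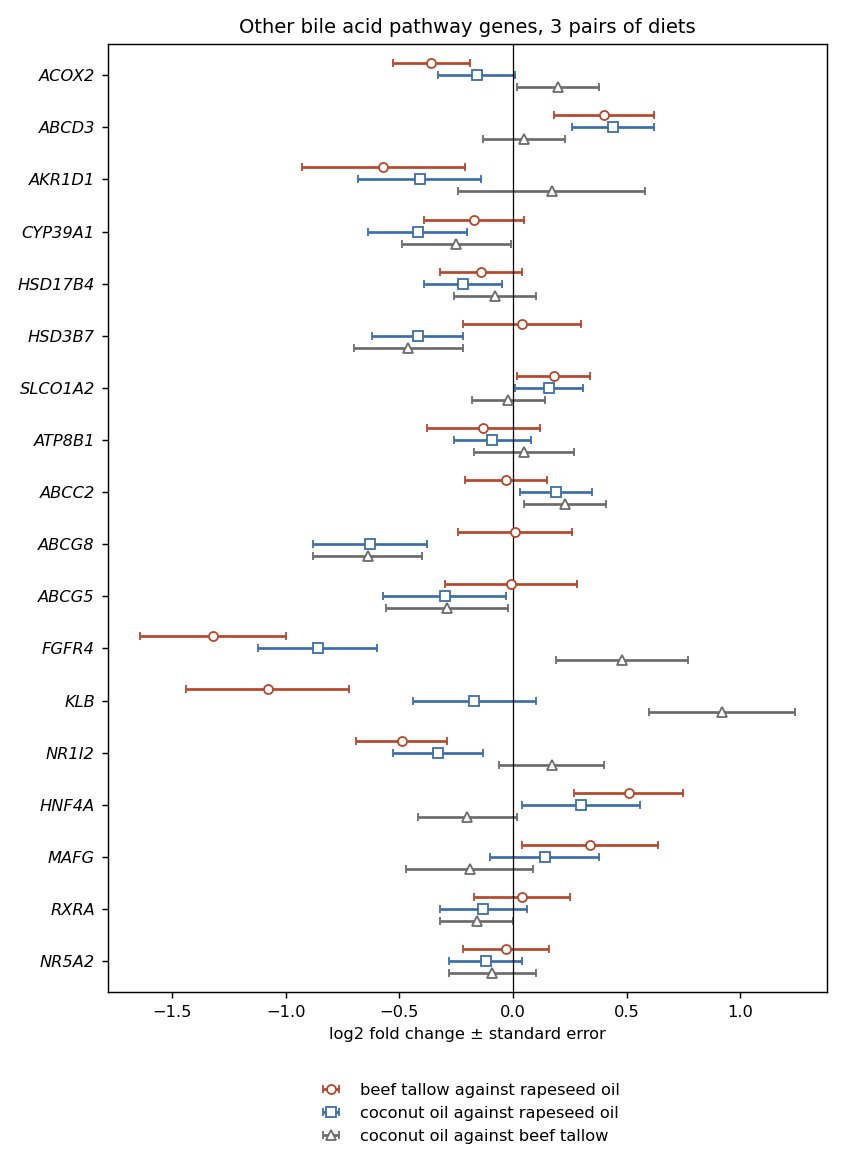
Log2 fold change of the 18 other tested genes of the bile acid pathway in the 3 pairs of diets, with whiskers of 1 standard error, ordered as synthesis enzymes, transporters and regulators. All symbols are open, since none passed an edgeR adjusted p of 0.05, and FGFR4 at -1.32 and KLB at -1.08 for beef tallow against rapeseed oil lie farthest from 0.

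FGFR4 and KLB, which together form the hepatocyte receptor for FGF19, had the smallest p of these genes for beef tallow against rapeseed oil. FGFR4 measured 25, 41, 14.2, 25.8 and 27.5 CPM in group R and 13, 9.55, 9.19, 15.9 and 5.53 CPM in group B, with 1 beef tallow pig above the lowest rapeseed oil pig. Its log2 fold change was -1.32 (standard error 0.32), just short of the threshold (edgeR adjusted p = 0.0563). KLB was at -1.08 (standard error 0.36, edgeR adjusted p = 0.148), from 12.3 to 37.4 CPM in group R and from 5.53 to 22.2 CPM in group B. NR1I2, the xenobiotic receptor PXR, was at -0.49 (edgeR adjusted p = 0.251). HNF4A at 0.51 and ACOX2 at -0.36, named after their values were seen, made up the 5.

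With coconut oil against rapeseed oil, FGFR4 was at -0.86 (edgeR adjusted p = 0.171), ABCG8, a subunit of the canalicular sterol exporter, at -0.63 (0.299) and ABCD3, a peroxisomal importer of bile acid precursors, at 0.44 (0.31). In coconut oil against beef tallow, KLB was at 0.92 (edgeR adjusted p = 0.302) and ABCG8 at -0.64 (0.325). Between the sexes HSD3B7, an enzyme of the sterol ring, was at -0.46 in barrows against gilts and ABCG8 at -0.45, both with an edgeR adjusted p of 0.998. FGFR4 and KLB rested on 5 to 40 reads per pig.

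Markers of other liver cells were read beside these results. Of the 7 Kupffer cell markers, 6 had a positive log2 fold change for beef tallow against rapeseed oil. MARCO was negative (-0.55, edgeR adjusted p = 0.424). In that comparison 1 of the 7, CD163, passed (0.79, edgeR adjusted p = 0.0414), against 1.11% of all genes. The summed level of the 7 Kupffer cell markers ran from 613 to 1147 CPM with rapeseed oil, 848 to 1698 with beef tallow and 613 to 884 with coconut oil. The medians of this sum were 1025, 994 and 674 CPM in the same order, so that of beef tallow was not above that of rapeseed oil. Of the 5 hepatocyte markers tested, TTR passed as lower with beef tallow (-0.78, edgeR adjusted p = 0.0426) and the others did not. ALB was at -0.29, TF at -0.1, APOA1 at 0.04 and APOB at 0.05, so the fall of TTR was not shared by the list. Of the 4 markers of sinusoidal endothelium LYVE1 passed as higher (0.88, edgeR adjusted p = 0.0495). In all 3 of the 4 were positive and 1, KDR, was negative (-0.5, edgeR adjusted p = 0.394). Summed hepatocyte markers ran from 110229 to 164115 CPM with rapeseed oil, 65734 to 152600 with beef tallow and 97418 to 189982 with coconut oil. Their medians were 124835, 107510 and 120053 CPM in the same order. In edgeR 0 of the 4 stellate cell, 1 lymphocyte and 3 red cell markers tested passed for beef tallow against rapeseed oil, where 1.11% of all genes did. DESeq2 called RGS5 of the stellate cells as lower (adjusted p = 0.00693), against 3.24% of its genes. With coconut oil against beef tallow, 6 of 7 Kupffer cell markers had a negative log2 fold change. There edgeR called 0 markers of any list, against 0.0587% of all genes. DESeq2 called C1QA as lower (adjusted p = 0.0292) and the hepatocyte marker TTR as higher (adjusted p = 0.0467), against 2.46% of its genes. The edgeR log2 fold change of TTR there was 0.54 (adjusted p = 0.292). With coconut oil against rapeseed oil, LYVE1 was at 0.86 (edgeR adjusted p = 0.104) and 5 of 7 Kupffer cell markers had a negative log2 fold change. DESeq2 called LYVE1 as higher (adjusted p = 0.0216) and C1QA as lower (adjusted p = 0.036), against 2.61% of its genes. The part of these cells and markers in the differences of CYP7A1 and ABCB11 was not tested.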

How the data were processed

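The authors ran FastQC, trimmed with FLEXBAR 3.5.0, aligned to Sus scrofa 11.1 using TopHat 2.1.1, and tallied reads over Ensembl annotation 96 by HTSeq-count 0.11.1. The deposited counts are whole reads without normalization, and the strand setting is not given in the sources used here. Reads with several alignments (15.4% to 38.1% per pig) were counted on no gene.

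Each pair of diets was fitted alone with edgeR 4.0.16 in R 4.3.3 (TMM, filterByExpr at min.count 10 and min.total.count 15, quasi-likelihood test, no covariates), with a threshold of 0.05 on the Benjamini-Hochberg adjusted p over all genes tested. The standard error is the log2 fold change divided by the square root of F. The sex comparison used all 16 pigs, and a diet by sex term was tested per pair. Log2 CPM used a pseudocount of 0.5 reads, and relations used 100000 two-sided permutations within diets. The fits were tested on simulated data.

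Alternatives were DESeq2 1.42.0, RLE size factors, no filter, 1 fit of all pigs, a covariate for sex (diet for the sexes), a replicate block (what the replicate numbers stand for is not stated), thinned counts and each pig left out. Named genes were the 10 members, of the pathway lists the called genes or else up to 3 per comparison with the smallest unadjusted p below 0.05, and the 5 genes most like CYP7A1. The members and lists were chosen with earlier results of these data known. Positions are RefSeq's, matched by symbol, and the identifier of each gene came from a symbol table in which 14857 of the 25880 genes have a symbol. No 2 of the 120 pairs of libraries were identical.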

Additional observations from a re-analysis of the deposited data

Results flagged for a closer look

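In 1 of 21 groups (7 genes in 3 diets), 1 pig lay far from the others of its diet. SLC10A1 in beef tallow pig 2 was at 8.49 CPM, the lowest of group B, with a gap to the next pig of 0.742 of the whole range on the log2 scale. Chance alone marks about 1 group in 20.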

How the results depend on the processing

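For beef tallow against rapeseed oil, CYP7A1 passed in all 7 alternatives that kept every pig, between -2.78 and -2.63. The 2 genes called became 1 with sex as a covariate, with the replicate block and with counts thinned to the smallest library, where ABCB11 missed the threshold (edgeR adjusted p = 0.0514, 0.0813 and 0.0632), and 1 to 2 when a pig was left out. All genes called went from 70 to 188 with DESeq2, 190 without the filter, 35 with the replicate block and 9 to 149 when a pig was left out. For coconut oil against rapeseed oil, 9 became 93 with DESeq2, 82 without the filter and 3 to 27 when a pig was left out. For coconut oil against beef tallow, 4 became 53 with DESeq2, 22 without the filter, 8 with all 16 pigs in 1 fit and 4 to 9 when a pig was left out; of the 7 bile acid genes, 0 became 2 with DESeq2, 1 without the filter, 1 with the replicate block (CYP7A1, 2.47, edgeR adjusted p = 0.0371) and 0 to 1 when a pig was left out. Between the sexes 5 became 11 with DESeq2 and 10 without the filter. The cause of these shifts was not tested. Over all genes kept by the filter, same-numbered pigs did not deviate together (r between -0.21 and 0.13, over 0.1 in 1, 1 and 0 of 5 pairs). This does not speak for CYP7A1 alone. Its log2 CPM centred on the diet was 0.4, 0.59 and 0.87 in pigs 1 of groups R, B and C. In pigs 5 it was -0.16, -0.71 and -0.69, and pigs 2, 3 and 4 had mixed signs. A relation of CYP7A1 to the replicate number was not tested. What the replicate numbers stand for is not stated in the sources used here, and so few pairs cannot settle it. Within a comparison, signs turned only in genes not called in it. With thinned counts SLC10A1 was at -0.11 for beef tallow against rapeseed oil and 0.04 for coconut oil against beef tallow, and with diet as a covariate CYP7A1 was at 0.07 and ABCB11 at 0.09 in barrows against gilts. When a pig was left out, beef tallow against rapeseed oil gave -0.16 to 0.46 for SLC10A1 and -0.07 to 0.23 for NR1H4, coconut oil against rapeseed oil gave -0.13 to 0.02 for CYP27A1 and -0.36 to 0.26 for SLC10A1, and barrows against gilts gave -0.53 to 0.02 for CYP7A1, -0.11 to 0.09 for ABCB11, -0.22 to 0.1 for SLC10A1 and -0.16 to 0.01 for NR1H4. DESeq2 gave no adjusted p to NR0B2 and SLC10A1 for coconut oil against beef tallow, nor to SLC10A1 for coconut oil against rapeseed oil.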
